A study of Homo sapiens with 6 samples.

Results

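The Kruppel-like factors are described here through 10 genes, KLF3, KLF4, KLF5, KLF6, KLF7, KLF9, KLF10, KLF11, KLF13 and KLF15, in IKPRAB-36 cells cultured with or without a progestin. The members were chosen by name, with earlier results of these data known. Every probe set annotated to one of these genes alone was taken, which gave 32 of 54613 probe sets tested. IKPRAB-36 is one line of Ishikawa endometrial cancer cells, stably transfected with the progesterone receptor isoforms PRA and PRB and kept under hygromycin and neomycin. RNA was taken from cells grown for 48 h with 1 nM medroxyprogesterone acetate (MPA 1 to 3), a synthetic progestin that also binds the glucocorticoid and androgen receptors, and from cells grown for the same time without it (control 1 to 3). Both groups carried the introduced receptors and were kept in medium with charcoal-stripped serum, which is poor in steroids. One Affymetrix U133 Plus array was run per sample. The sources give n = 3 but do not say that the 3 samples of a group came from separate cultures, so the p-values speak only of array-to-array spread, which could be purely technical.

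Kruppel-like factors are transcription factors that bind GC-rich and CACCC sequences through a row of zinc fingers at the end of the protein, while the rest of the protein differs between members and recruits coactivators or corepressors. They are known for setting the balance between proliferation and differentiation in epithelia. In the endometrium KLF9 is known as a partner of the progesterone receptor, and KLF15 as a brake on estrogen-driven DNA replication in the mouse uterine epithelium.

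Values are RMA signals on the log2 scale, in which the median of an array lay between 5.17 and 5.29. A signal near or below that median cannot be set apart from a gene that is not expressed. MPA 3 stood apart in its poly-A spike-in probe sets (mean 6.19, with 7.50 to 8.23 elsewhere) and its 18S rRNA probe sets (7.06, with 8.09 to 9.44 elsewhere), and changes without it are given for the members. The 7 epithelial markers examined, among them KRT8, KRT18 and EPCAM, all lay above the array medians, with a mean over the list of 10.19 to 10.44 on MPA arrays and 10.33 to 10.57 on control arrays. None of the 7 was called, but they did not move as one. EPCAM (-0.54), CDH1 (-0.76) and PAX8 (-0.44) read lower on every MPA array than on any control array (adjusted p = 0.0586, 0.128 and 0.0762 from limma), while KRT8 was at 0.22 (adjusted p = 0.682), also without overlap. The part of these markers in the results that follow was not tested. Means of the fibroblast markers were 4.99 to 5.18 on MPA arrays and 5.03 to 5.35 on control arrays, those of the leukocyte markers 4.39 to 4.75 and 4.49 to 4.64, and those of the endothelial markers 4.57 to 4.87 and 4.74 to 4.80, in the same order of groups. Among the fibroblast markers the collagen gene COL1A1 read 8.17 ± 0.13 with MPA and 8.97 ± 0.49 in control cells (SD, n = 3 each). The fibroblast marker DCN (mean 5.38 with MPA, 5.41 in control cells) also lay above the median of every array. So did the leukocyte marker CD3E (5.45 and 5.49) and the endothelial marker PECAM1 (6.12 and 6.30).

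MPA raised KLF9, KLF6 and KLF15, and none of the other 7 members passed the test in either direction. In RMA signal KLF9 rose by 4.68-fold in its brightest probe set, KLF6 by 2.47-fold and KLF15 by 1.88-fold. Here a call stands for an adjusted p under 0.05 in limma (Benjamini-Hochberg, 54613 probe sets) together with the minimum fold change of the study's methods. Of the 32 member probe sets 8 were higher and 0 lower, where 1.21% of all probe sets were higher, 0.813% lower and 2.03% one or the other. The count at an unadjusted p under 0.05 was 12. By the brightest probe set of each gene, 3 of the 10 members were higher, where 1.74% of 19775 genes were higher and 2.90% were called in either direction. Since the members were chosen with earlier results known, these shares are given for scale and are not a test of the family. The median log2 fold change was -0.07 over the 10 members and 0.02 over all genes. In 12 of the 32 probe sets the MPA and control arrays did not overlap, against 15.4% of all probe sets. SAM, the test of the study's methods, called 8 member probe sets higher and 0 lower. By exact permutation of the 6 arrays each of these 8 probe sets had a two-sided p of 0.1, the smallest that this design allows. In bulk RNA such as this, a change per cell and a change in the share of expressing cells cannot be told apart.

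**Figure D1:**
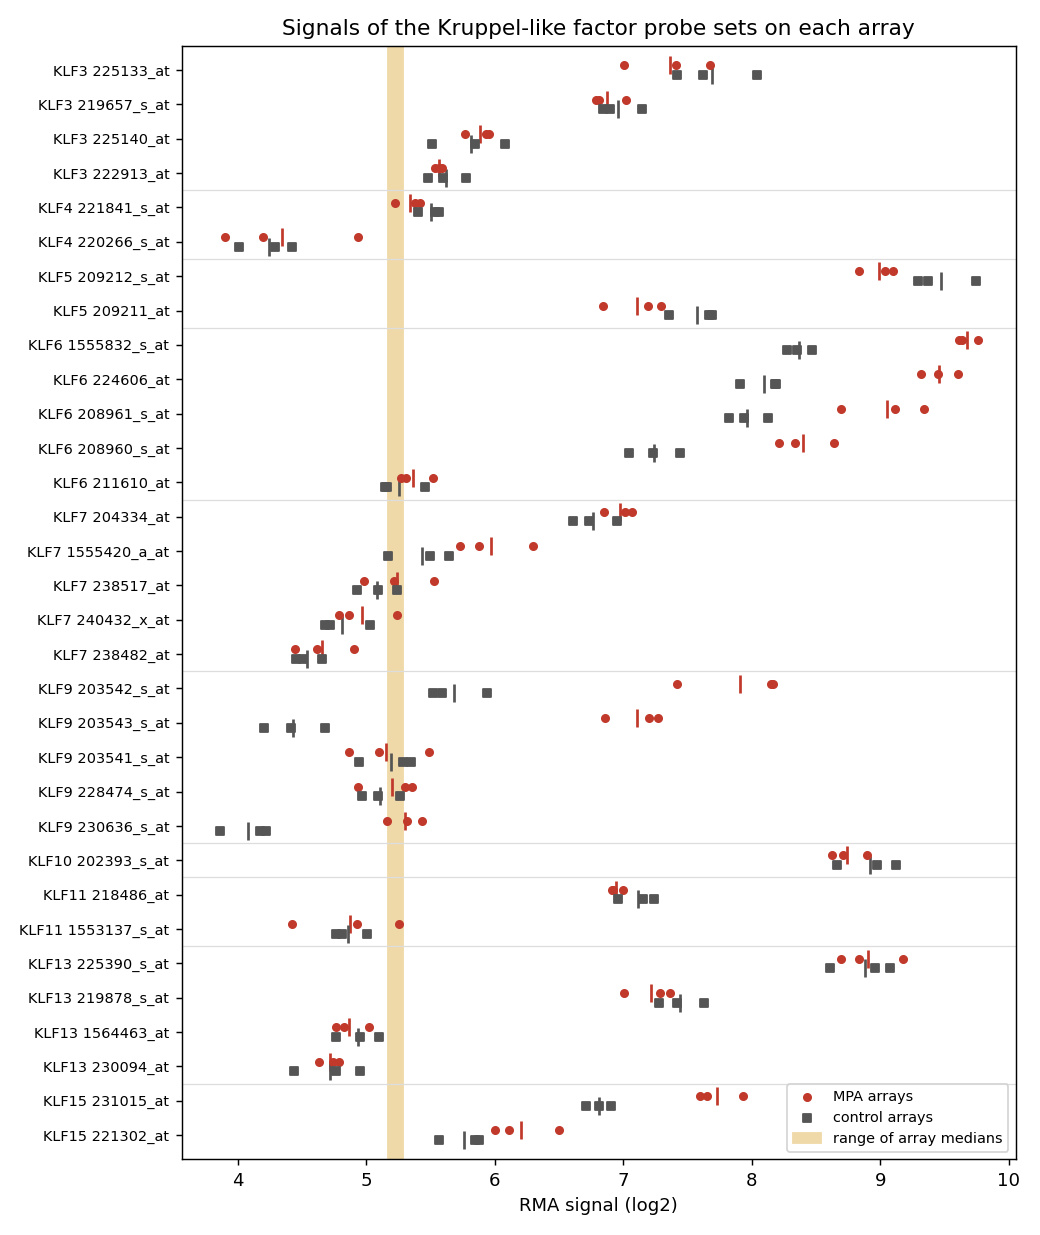
RMA signal (log2) of the 32 probe sets of 10 Kruppel-like factors on each MPA array (red circles) and each control array (grey squares), with vertical marks at the group means and a band from the lowest to the highest array median (5.17 to 5.29). Red and grey points are clearly apart for 3 probe sets of KLF9, 4 of KLF6 and 1 of KLF15.

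KLF9, first described as a protein that binds the basic transcription element of GC-rich promoters, showed the largest change of the family, and it did so in 3 of its 5 probe sets. The brightest (203542_s_at) had signals of 8.15, 8.16 and 7.42 on MPA 1 to 3, against 5.59, 5.94 and 5.52 on control 1 to 3. The second (203543_s_at) read 7.20, 7.27 and 6.86 with MPA, against 4.20, 4.68 and 4.41 without. In both, the groups were far apart, and MPA 3 was the lowest of the MPA arrays. The log2 fold change was 2.23 (SE 0.21, adjusted p = 0.00115 from limma) for the first and 2.68 (SE 0.16, adjusted p = 0.000130) for the second, a 6.41-fold difference. Since the control signals of the second lay under the array medians, this fold is that of the RMA signals only. The control signals of the first, 5.52 to 5.94, lay not far above the medians, so its fold carries the same limit.
Another KLF9 probe set (230636_s_at) was dim, at 5.43, 5.32 and 5.16 on MPA arrays and 4.22, 4.17 and 3.86 on control arrays. Its log2 fold change was 1.22 (SE 0.13, adjusted p = 0.00226), again of RMA signals only, with the controls under the array medians. The other two KLF9 probe sets did not separate the groups. Probe set 203541_s_at averaged 5.15 ± 0.31 with MPA and 5.19 ± 0.22 in control cells, and 228474_s_at averaged 5.20 ± 0.23 and 5.10 ± 0.15 in the same order (SD, n = 3 each). Both read close to the array medians in each group (adjusted p = 0.980 and 0.926). Without MPA 3 the first 2 probe sets had log2 fold changes of 2.47 and 2.80, and the third 1.29.

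KLF6, a broadly expressed factor known as a tumour suppressor in several cancers, rose in 4 of its 5 probe sets. Probe set 1555832_s_at read 9.64, 9.76 and 9.62 on MPA arrays, against 8.28, 8.46 and 8.36 on control arrays. These replicates were tight, with SDs of 0.08 and 0.09, and every MPA array was more than a full log2 unit above every control array. The log2 fold change was 1.31 (SE 0.10, adjusted p = 0.000480). Probe set 224606_at read 9.32, 9.60 and 9.45 with MPA, against 7.91, 8.19 and 8.18 without, a 2.58-fold difference (adjusted p = 0.000952).
The remaining pair that rose had log2 fold changes of 1.16 (208960_s_at, adjusted p = 0.00577) and 1.09 (208961_s_at, adjusted p = 0.0153). In 208961_s_at the MPA arrays read 9.11, 9.34 and 8.69 and the control arrays 7.82, 8.12 and 7.94, so that MPA 3 was again the lowest of its group. This probe set lost its call without MPA 1, control 1 or control 3 (adjusted p = 0.0920, 0.0879 and 0.0907), and had a log2 fold change of 1.27 without MPA 3. Without that array the others that rose had 1.33 (1555832_s_at), 1.37 (224606_at) and 1.248 (208960_s_at). The fifth KLF6 probe set (211610_at) was close to the array medians in both groups, at 5.37 ± 0.13 with MPA and 5.26 ± 0.18 in control cells (SD, n = 3 each, adjusted p = 0.889).

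KLF15, a factor known for the control of glucose and amino acid metabolism and for its induction by glucocorticoids, rose in 1 of 2 probe sets. The called one (231015_at) read 7.59, 7.65 and 7.93 on MPA arrays, against 6.91, 6.71 and 6.81 on control arrays. Here MPA 3 was the highest array. The log2 fold change was 0.91 (SE 0.12, adjusted p = 0.00725), or 0.81 without MPA 3. Without control 3 the change was 0.92 with an adjusted p of 0.0519, so that the call was lost, and with a minimum of 2-fold it was lost as well. The second KLF15 probe set (221302_at) read 6.11, 6.005 and 6.50 with MPA, against 5.88, 5.57 and 5.85 without. Its groups did not overlap, yet its log2 fold change of 0.44 (95% interval 0.09 to 0.80) did not pass the test (adjusted p = 0.323), and was 0.29 without MPA 3.

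**Figure D2:**
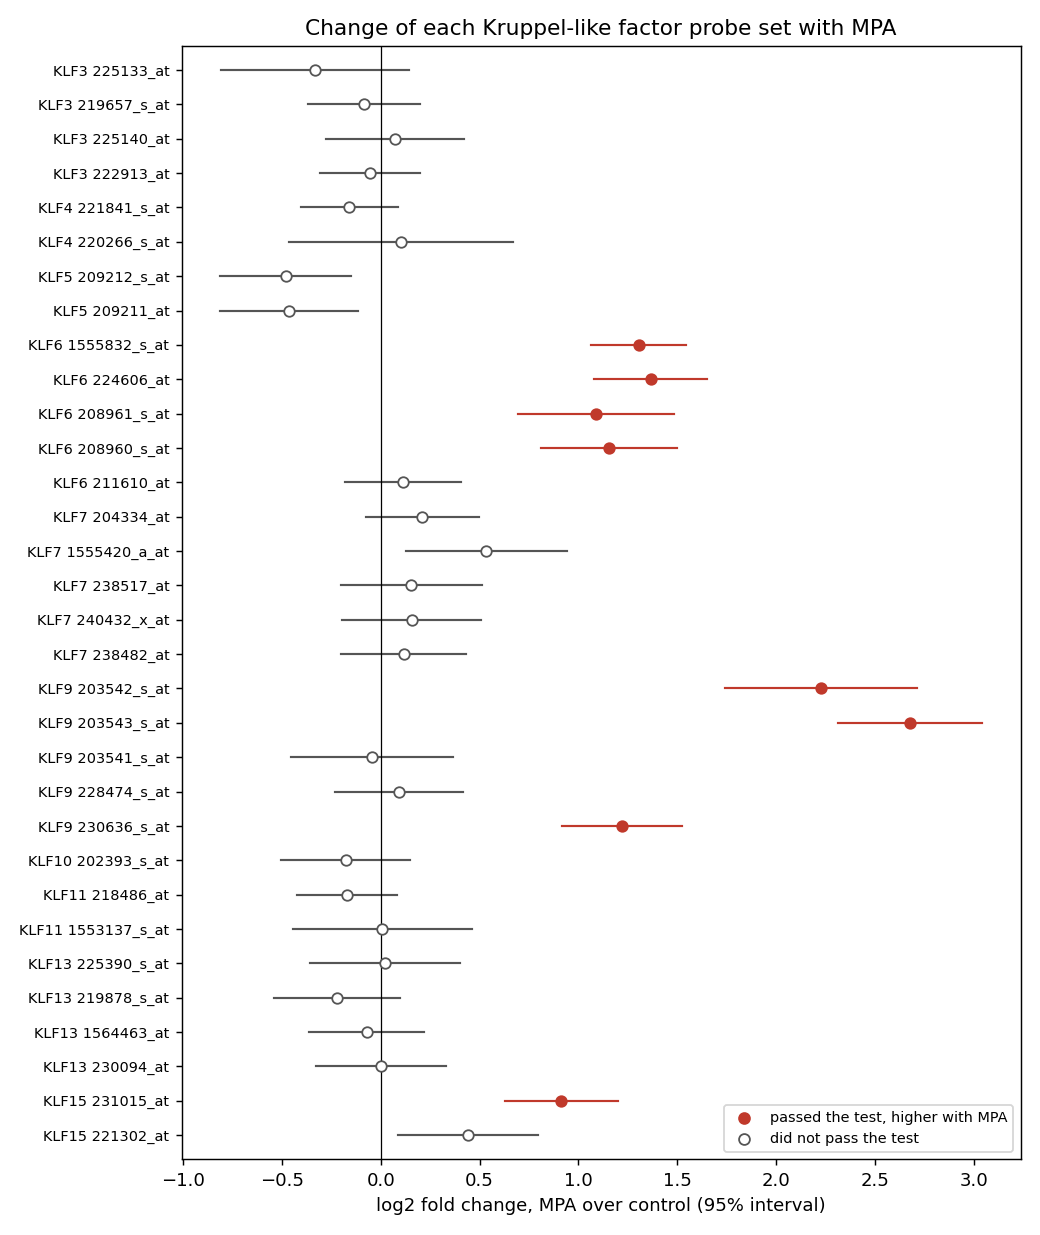
log2 fold change of MPA over control for the 32 probe sets of the 10 genes, with 95% intervals that are not adjusted for the number of probe sets (limma, 3 arrays per group). The 8 filled points passed the test, from 0.91 for KLF15 to 2.68 for KLF9, and the 24 open points lie between -0.48 and 0.53.

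The sequences just upstream of the start sites of the 3 genes that rose are shown because these genes moved together while their upstream bases differ. They are the 250 bases before the RefSeq start (build GRCh38.p14, all 3 genes on the minus strand), at chr9:70414658-70414907 for KLF9, chr10:3785210-3785459 for KLF6 and chr3:126357409-126357658 for KLF15. Capitals mark GC boxes (GGGCGG, or CCGCCC on the other strand), the kind of site that Kruppel-like and Sp factors bind.
KLF9: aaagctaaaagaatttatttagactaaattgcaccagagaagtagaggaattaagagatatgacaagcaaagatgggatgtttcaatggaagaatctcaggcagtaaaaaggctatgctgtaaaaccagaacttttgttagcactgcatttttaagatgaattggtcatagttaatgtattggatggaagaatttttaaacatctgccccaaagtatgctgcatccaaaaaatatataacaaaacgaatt
KLF6: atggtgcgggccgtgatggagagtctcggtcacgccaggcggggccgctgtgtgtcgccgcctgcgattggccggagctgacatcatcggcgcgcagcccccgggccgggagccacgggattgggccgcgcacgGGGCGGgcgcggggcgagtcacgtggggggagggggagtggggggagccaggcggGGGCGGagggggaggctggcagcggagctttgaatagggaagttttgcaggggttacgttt
KLF15: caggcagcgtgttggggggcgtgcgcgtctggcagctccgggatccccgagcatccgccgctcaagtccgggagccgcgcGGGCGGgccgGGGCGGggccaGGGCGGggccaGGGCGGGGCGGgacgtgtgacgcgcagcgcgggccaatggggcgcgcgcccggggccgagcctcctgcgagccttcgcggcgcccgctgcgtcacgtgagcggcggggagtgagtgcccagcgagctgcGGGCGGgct
The KLF15 stretch holds 6 GC boxes, among them a pair that shares a base, and the KLF6 stretch holds 2, while the KLF9 stretch holds 0. The GC content was 80.4% for KLF15, 72.4% for KLF6 and 32.4% for KLF9, against a median of 58% over the 35116 human promoter windows of the same length. A GC box was found in 42.6% of those windows. None of the 3 held a CACCC box (CACCC or GGGTG, in 54.7% of all windows), a steroid response half-site (TGTTCT or AGAACA, in 12.4%) or the full palindromic steroid response element with free bases at its variable positions (in 0.327%), which can overlap a half-site. Of the 10 members 8 had a promoter entry, with 13 start sites in all; KLF3 and KLF10 had none. Half-sites were found once each in 1 of 4 windows of KLF7 and 1 of 2 windows of KLF5. GC boxes were not particular to the genes that rose. The windows of KLF11 held 2 and 6, that of KLF4 held 4 and that of KLF13 held 3. In KLF7 1 of 4 windows held 4, and in KLF5 1 of 2 windows held 2. Such matches describe the letters of these windows and say nothing of binding, and no match says nothing of sites further away.

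KLF4 and KLF5, which in the gut epithelium mark differentiated and dividing cells, did not pass the test. KLF5 had signals of 9.04, 9.10 and 8.83 in probe set 209212_s_at on MPA arrays, against 9.30, 9.75 and 9.37 on control arrays. All MPA arrays were below all control arrays, and the second KLF5 probe set (209211_at) showed the same order, at 7.29, 7.19 and 6.84 with MPA and 7.36, 7.69 and 7.67 without. The log2 fold changes were -0.48 (95% interval -0.81 to -0.15) and -0.46 (-0.81 to -0.11), with adjusted p-values of 0.222 and 0.279. Neither limma nor SAM called KLF5, and its adjusted p was 0.0640 to 0.467 for the first probe set over all the alternatives tried. Without MPA 3 the changes were -0.40 and -0.33. KLF4 was dim: its brighter probe set averaged 5.34 ± 0.10 with MPA and 5.50 ± 0.08 in control cells (SD, n = 3 each, adjusted p = 0.742), and the other one lay below the array median on all 6 arrays. Without MPA 3 the brighter one was at -0.18 and the other at -0.19, in place of 0.10 with all arrays.

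KLF7, known for its part in the growth of neurons and the nearest relative of KLF6 among the members, had 5 probe sets, none of which was called. In 1555420_a_at the groups did not overlap, with 5.88, 6.29 and 5.73 on MPA arrays against 5.16, 5.64 and 5.49 on control arrays. The log2 fold change was 0.53 (95% interval 0.13 to 0.94, adjusted p = 0.287), and 0.65 without MPA 3. Over the alternatives tried the adjusted p of this probe set was 0.0502 to 0.740 from limma, lowest with the replicate block. The brightest KLF7 probe set (204334_at) averaged 6.98 ± 0.12 with MPA and 6.76 ± 0.17 without (adjusted p = 0.679), and its groups overlapped. Its change was 0.21, or 0.28 without MPA 3. The other 3 lay between 0.12 and 0.16 on the log2 scale of change, at signals near or under the array medians, and between -0.0092 and 0.24 without MPA 3.

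KLF10 and KLF11, the TGF-beta inducible early genes, whose products recruit the SIN3 corepressor, had small differences that did not pass the test. KLF10 read 8.90, 8.71 and 8.63 on MPA arrays, against 8.98, 8.66 and 9.12 on control arrays. Its log2 fold change was -0.18 (95% interval -0.50 to 0.15). KLF11 read 6.92, 6.91 and 6.998 with MPA, against 7.24, 6.96 and 7.15 without, with a log2 fold change of -0.17 (-0.42 to 0.08). The intervals leave room for a modest decrease in either gene, and the adjusted p-values were 0.808 and 0.722. Without MPA 3 the changes were -0.12 for KLF10 and -0.20 for KLF11. A second KLF11 probe set (1553137_s_at) lay below the median of every array, with 4.87 ± 0.42 with MPA and 4.86 ± 0.13 without (SD, n = 3 each, adjusted p = 0.997). Its change of 0.0089 became -0.18 without MPA 3.

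KLF13, a close paralog of KLF9 known as an activator of the chemokine gene CCL5 in T cells, did not separate the groups. It read 8.70, 8.83 and 9.18 on MPA arrays, against 8.96, 8.61 and 9.07 on control arrays in 225390_s_at. The log2 fold change was 0.02 (95% interval -0.36 to 0.40, adjusted p = 0.990) and turned to -0.03 after scaling by housekeeping genes and to -0.11 without MPA 3. Its 3 other probe sets had changes of -0.22, -0.07 and 0.0015, none of them called, or -0.12, -0.15 and -0.034 without MPA 3. KLF3, a repressor that works through CtBP, had 4 probe sets with changes of -0.33, -0.08, 0.07 and -0.06. The brightest (225133_at) read 7.41, 7.68 and 7.004 with MPA, against 7.42, 8.04 and 7.62 without, so that the groups overlapped (95% interval -0.81 to 0.14, adjusted p = 0.707). Without MPA 3 its change was -0.15 and the others were -0.16, 0.037 and -0.070.

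Relatives within the family were also set against each other by the difference of their signals within each array. Only the brightest probe set of each gene was used, so KLF7 1555420_a_at, with a change of 0.53, had no part in this. KLF9 minus KLF13 was -1.76 to -0.55 on MPA arrays and -3.56 to -2.67 on control arrays. KLF6 minus KLF7 was 2.63 to 2.77 with MPA and 1.51 to 1.67 without. In both pairs the change of one gene differed from that of the other by more than the spread of the arrays, by 2.20 and 1.09 on the log2 scale, with an exact permutation p of 0.1, the smallest possible (0.2 adjusted over the 4 pairs compared). KLF10 minus KLF11 was 1.63 to 1.98 with MPA and 1.71 to 1.97 without, a difference of -0.01 (exact p = 1). KLF4 minus KLF5 was -3.88 to -3.46 and -4.19 to -3.76 in the same order, a difference of 0.32 (exact p = 0.2). These differences serve to compare changes, since levels of different probe sets cannot be compared.

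Each array was left out in turn to see how far the calls rested on single arrays. The 3 KLF9 probe sets and 3 of the 4 KLF6 probe sets kept their calls in all 6 cases. Their log2 fold changes then ranged from 2.10 to 2.47, 2.57 to 2.80 and 1.11 to 1.29 for KLF9, in the order described above. For KLF6 they ranged from 1.26 to 1.36 in 1555832_s_at, from 1.27 to 1.43 in 224606_at and from 1.03 to 1.26 in 208960_s_at. KLF6 208961_s_at kept its call in 3 of 6 cases, and KLF15 in 5 of 6. The number of member probe sets called higher was 6 to 8 in these cases, and that of members called lower was 0 in each. When the probe sets of each gene were averaged, flat ones included, the log2 fold changes were 1.24 for KLF9, 1.01 for KLF6 and 0.68 for KLF15 (adjusted p = 0.000434, 0.000848 and 0.0266 from limma).

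**Figure D3:**
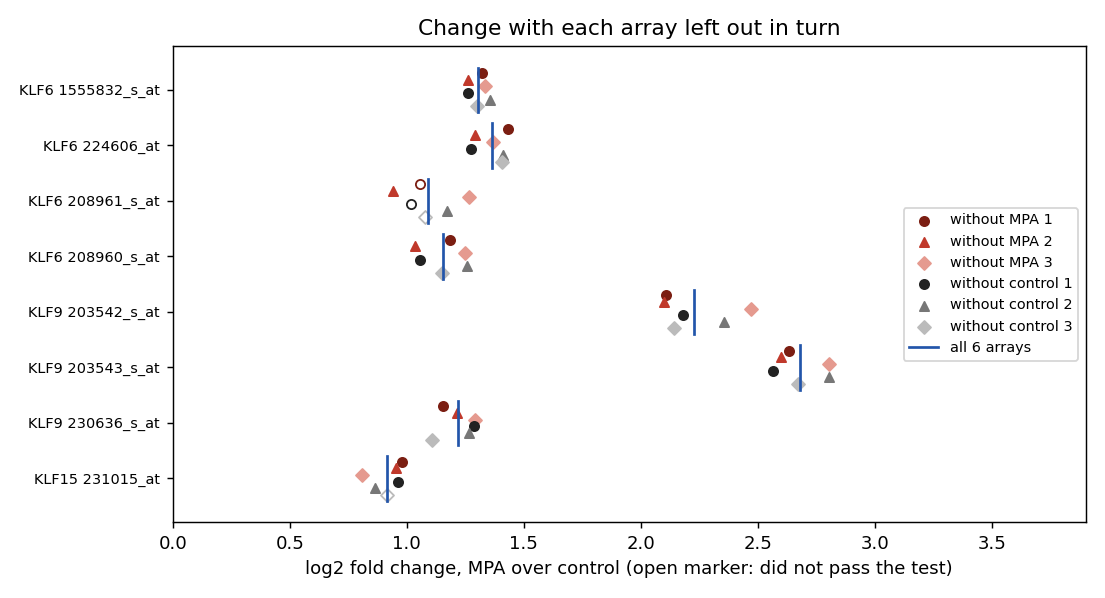
log2 fold change of MPA over control for the 8 called probe sets with each array left out in turn (red, MPA arrays; grey to black, control arrays), beside the value with all 6 arrays (blue line). Open markers did not pass the test: they occur for KLF6 208961_s_at (without MPA 1, control 1 and control 3) and for KLF15 (without control 3).

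None of the relatives outside the 10 members passed the test. Of 17 other Kruppel-like and Sp genes 15 were measured, and limma called 0 of them, with 1 at an unadjusted p under 0.05; SAM also called 0. That gene was SP5, a Wnt target, with a log2 fold change of -0.31 (adjusted p = 0.417). SP2 was at -0.32, the AP-2 repressor KLF12 at 0.15 and the osteoblast factor SP7, which lay below the medians of all 6 arrays, at 0.19 (adjusted p = 0.532, 0.774 and 0.797). Over the list the median change was 0.05, and 6 of its genes had a mean signal under the array medians, 4 of them with every array below.
Among 12 cofactors of the family, SIN3B, a scaffold of the corepressor complex that KLF9, KLF10, KLF11 and KLF13 recruit, was the only one higher, and 0 were lower, where 1.74% of all genes were higher and 1.16% lower. It read 8.42 ± 0.14 with MPA and 7.32 ± 0.10 in control cells (SD, n = 3 each), a log2 fold change of 1.10 (adjusted p = 0.00184), and a second SIN3B probe set rose by 1.14. The remaining SIN3B probe set was at 0.27 with overlapping groups (adjusted p = 0.70). SIN3A, also on the list, was at 0.05 (adjusted p = 0.955 from limma). The acetyltransferase gene KAT2B had 0.81 (adjusted p = 0.0511) and was called by SAM. CREBBP, a coactivator, was at -0.45, FBXW7, which marks KLF5 for degradation, at 0.27 and EP300 at -0.18 (adjusted p = 0.282, 0.583 and 0.776). These values are those of the brightest probe sets. Other probe sets were at -0.37, 0.12 and 0.09 for CREBBP, at 0.24, 0.48 and -0.01 for FBXW7 and at -0.13 for EP300, none of them called by limma. The median of the cofactors was -0.02.
Of the receptors that MPA binds, PGR averaged 10.70 ± 0.33 with MPA and 10.22 ± 0.04 without (adjusted p = 0.294), and the glucocorticoid receptor gene NR3C1 8.31 ± 0.35 and 8.19 ± 0.30 in the same order (adjusted p = 0.936). Of the 3 receptor genes listed these 2 were measured, and no values of the androgen receptor gene are given here. The PGR signal given is that of its brightest probe set, in which every MPA array lay above every control array. Its log2 fold change was 0.48 (95% interval 0.11 to 0.85), or 0.29 without MPA 3. The other PGR probe set lay below the median of every array, at 3.67 ± 0.10 with MPA and 3.68 ± 0.18 without (SD, n = 3 each). Whether the PGR signal came from the introduced or the cells' own gene was not tested.

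Of 24 genes reported elsewhere as targets of Kruppel-like factors 23 were measured, of which 1 was higher and 2 were lower, where 1.74% of all genes were higher and 1.16% lower. The monoamine oxidase gene MAOA, a reported KLF11 target, averaged 7.38 ± 0.24 with MPA and 6.65 ± 0.09 in control cells (log2 fold change 0.74, adjusted p = 0.0341). FGFBP1 and PDGFA, reported as KLF5 targets, were lower, with 6.32 ± 0.04 and 9.16 ± 0.13 on MPA arrays against 8.66 ± 0.14 and 9.77 ± 0.04 on control arrays. Their log2 fold changes were -2.33 (adjusted p = 3.2e-05) and -0.61 (adjusted p = 0.0250). Another PDGFA probe set was also at -0.61 but was not called by limma (adjusted p = 0.0937). The other MAOA probe sets were at 0.62 (called, adjusted p = 0.0409 from limma) and 0.58 (not called, adjusted p = 0.210). In its brightest probe set MAOA lost its call without each array but MPA 2 (adjusted p up to 0.158). PDGFA did so without each array but MPA 3 and control 2 (up to 0.154). COL1A1, at -0.81, did not pass the test (adjusted p = 0.168), although SAM called it lower, as did limma without control 2 (-1.09, adjusted p = 0.0052). That holds for its brightest probe set only. The other COL1A1 probe sets were at -0.48, -0.25, 0.21 and 0.07, none of them called by limma. TAGLN (0.23), SMAD7 (-0.26) and LGALS3 (0.27) had adjusted p-values of 0.517 to 0.532. The list had a median of -0.03. Whether any of these genes changed through a Kruppel-like factor was not tested.

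**Figure D4:**
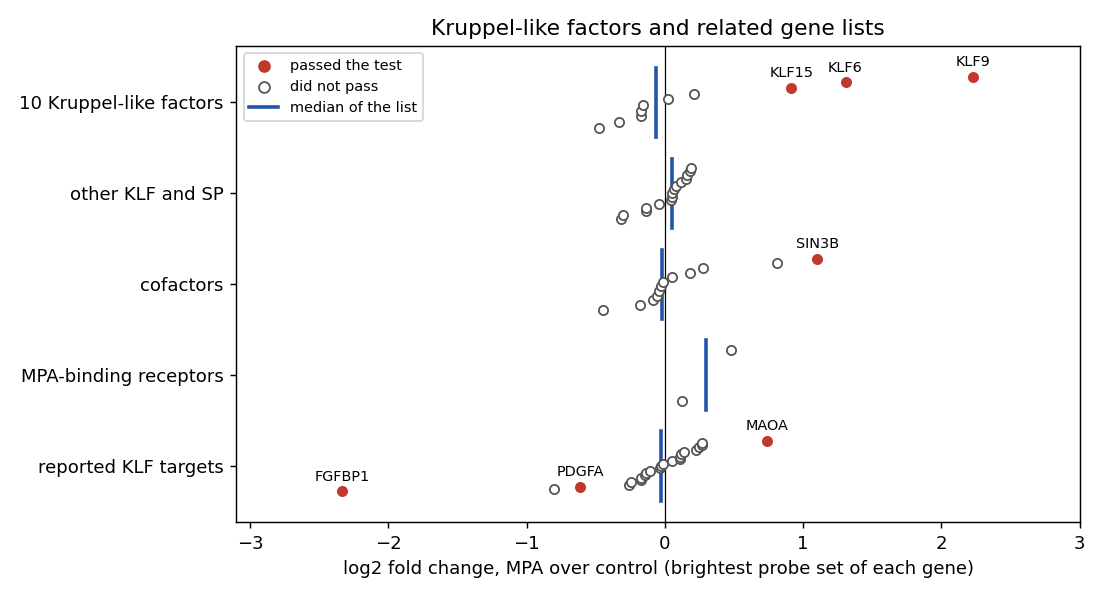
log2 fold change of MPA over control (3 arrays each) for the brightest probe set of the 10 Kruppel-like factors, 15 other KLF and SP genes, 12 cofactors, 2 receptors and 23 reported targets. Filled, named points passed the test, and blue lines mark the median of each list (-0.07, 0.05, -0.02, 0.30 and -0.03 from top to bottom).

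The genes whose signals followed those of KLF9 most closely were ranked by Pearson's r with its brightest probe set, over the 6 arrays and 12964 genes with a mean above the overall median. Highest were LOX, which crosslinks collagen (r = 0.996), the mitochondrial protein gene BNIP3 (0.995), the adenylate kinase gene AK4 (0.995), VCF1 (0.994) and the calpain gene CAPN2 (0.994), all of them called higher. Their log2 fold changes were 2.04, 1.69, 1.17, 0.94 and 0.80. Lowest were CYTH3 (-0.999), LOXL4 (-0.998), the amino acid transporter subunit gene SLC3A2 (-0.997), the chemokine gene CXCL1 (-0.997) and DPH5 (-0.997), of which the first 4 were called lower and DPH5 was not. Within the family r with KLF9 was 0.98 for KLF6, 0.88 for KLF15 and 0.79 for KLF7. It was -0.79 for KLF11, -0.70 for KLF4, -0.69 for KLF5, -0.49 for KLF10, -0.33 for KLF3 and -0.17 for KLF13. These 6 arrays form 2 groups, so that r mostly reflects the difference between the groups, and no p is given.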

How the data were processed

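Signals of 6 Affymetrix U133 Plus arrays were used, 3 of MPA-treated and 3 of untreated IKPRAB-36 cells. Per the labels and methods, the authors made the deposited log2 signals by RMA, with background correction, normalization between arrays and summary per probe set; its version is not given in the sources. Of 54675 probe sets, 62 Affymetrix controls were left out. Gene symbols came from the annotation of the platform, brought up to date by Entrez identifier: 41091 had 1 symbol, 1801 several and 11721 none. The brightest probe set stood for its gene. Promoter sequences came from RefSeq (GRCh38.p14).

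MPA was compared with control by limma 3.58.1 in R 4.3.3 (lmFit and eBayes, two-sided, groups only), and p-values were adjusted by Benjamini-Hochberg over 54613 probe sets. This test replaced the SAM of the study's methods as the main one; SAM (delta 0.53, 20 relabelings, 1.25-fold) was written from its description and run as an alternative. Both were tested on simulated data. The other alternatives were a replicate block, an intensity trend, other fold minimums, removal of dim probe sets, a second quantile normalization, scaling to 10 housekeeping genes, leaving out each array, and averaging the probe sets of a gene. Same-numbered arrays were not treated as pairs.

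Named were all members, every called gene of the lists of other KLF and SP genes, cofactors, receptors and reported targets with the 4 uncalled genes of lowest adjusted p in each, and the 5 genes at each end of the correlation with KLF9. SIN3A was named beside SIN3B. The members and lists were chosen with earlier results of these data known. Precision is limited by the number of arrays, which correlated at 0.987 to 0.997 within groups.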

Additional observations from a re-analysis of the deposited data

How the results depend on the processing

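The 8 calls of KLF9, KLF6 and KLF15 held with the replicate block, SAM, an intensity trend, no fold minimum and both rescalings. With a minimum of 2-fold KLF15 was lost, and the filter on dim probe sets removed KLF9 230636_s_at from the test. No member was called lower in any setting, and no uncalled member probe set was called in any. Of all probe sets tested 663 were called higher and 444 lower, against 1208 and 825 with the replicate block, 1313 and 868 with SAM, 357 and 153 with a minimum of 2-fold, and 353 to 725 and 156 to 465 with an array left out. After scaling by housekeeping genes the split was 567 and 550, with the median of all probe sets at -0.0433 in place of 0.0138. Same-numbered control and MPA arrays deviated together for numbers 2 and 3 (r = 0.52 and 0.33) but not 1 (r = -0.02). Not every array correlated best with its own number. The sources do not say whether same-numbered arrays were handled together, and these values do not settle it. The block changed no member's call.

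The count of cofactors higher was 2 in place of 1 with the replicate block, SAM, the filter on dim probe sets and averaging, KAT2B being the second, and 1 with any array left out. That of targets higher was 0 with a minimum of 2-fold and 0 to 1 with an array left out, and that of targets lower was 1 and 1 to 3 in these cases. The replicate block and SAM each called 3 targets lower in place of 2, COL1A1 being the added one. Members near 0 changed sign. After scaling by housekeeping genes and after a second quantile normalization KLF11 1553137_s_at was at -0.048 and -0.017, KLF13 225390_s_at at -0.034 and -0.0011 (-0.067 with averaging) and KLF13 230094_at at -0.056 and -0.019. With an array left out, KLF3 219657_s_at lay between -0.16 and 0.0086, 225140_at between -0.079 and 0.21 and 222913_at between -0.12 and 0.024. KLF4 220266_s_at lay between -0.19 and 0.33, KLF7 238482_at between -0.0092 and 0.22 and KLF9 203541_s_at between -0.21 and 0.10. KLF11 1553137_s_at lay between -0.18 and 0.23, and KLF13 225390_s_at, 1564463_at and 230094_at between -0.11 and 0.13, -0.16 and 0.010, and -0.14 and 0.12. The cause of these changes was not tested. Averaging was applied to genes only. Signals near or under the array medians limit what can be said of KLF4, the flat KLF9 and KLF6 probe sets and the dim KLF7 ones. The same holds for KLF11 1553137_s_at and for KLF13 1564463_at and 230094_at, which lay below the median of every array.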
